A study of Mus musculus with 2 samples.

Results

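The cells described here were labelled macrophages of the resident peritoneal type within tumours of the ID8 mouse ovarian cancer model. They were chosen by transcripts: a barcode with at least 250 genes and at most 20% mitochondrial UMIs (unique molecular identifiers, 1 per captured transcript) had to hold at least 4 UMIs of Csf1r, C1qa, C1qb and C1qc together, none of Cd3e, Cd79a, Xcr1 or Clec9a and at most 1 of Krt18. Within that phagocyte gate, the sum of Vsig4, Timd4 and Gata6 UMIs had to reach 2. The rule selected 501 members, 305 of 14908 kept barcodes in the chemoresistant library and 196 of 12824 in the primary library. Of the members, 155 held Gata6 without Vsig4 or Timd4, and as a group these go against the label, as described below. The other 3647 and 2607 barcodes of the gate are called other phagocytes. ID8 is a mouse ovarian surface epithelial line that grows in the peritoneal cavity. The chemoresistant library came from solid tumours exposed to cisplatin, a DNA-crosslinking drug, and the primary library from treatment-naïve solid tumours. In both, tissue was minced, digested with collagenase, freed of red cells and pooled before droplet capture with 3' chemistry. Strain, age, dose, the time of sampling and the number of tumours in a pool are not given in the sources used here. Each group was 1 library, so no difference between groups was tested, and the 95% intervals given cover counting error only.

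Large peritoneal macrophages are long-lived, largely self-maintaining cells of the serous cavity. Their identity depends on the transcription factor Gata6, which is controlled by retinoic acid, and they clear dying cells through receptors such as Timd4, which binds phosphatidylserine. Vsig4 is a complement receptor of resident macrophages in several tissues, and Fcna, ficolin A, is a lectin of the complement system. Small peritoneal macrophages derive from blood monocytes and carry Ccr2 and major histocompatibility complex (MHC) class II. Gata6 is also transcribed outside macrophages, in mesothelium and gut epithelium among others.

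Members held more UMIs per barcode than the rest of the gate, which bears on a rule that counts UMIs. Their median was 10437 UMIs in the chemoresistant and 14990 in the primary library, against 5351 and 10481 in other phagocytes. The libraries shared 52 barcode sequences, 1 of which belonged to a member of each library, and no barcode was a member in both. Levels are given as CPM, the counts of a gene scaled to a total of 1e6 over the UMIs summed in a class.

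The members fell into 2 kinds that the rule does not tell apart, and the smaller of these was low in the other transcripts that go with the label. A Vsig4 or Timd4 UMI was present in 225 of 305 chemoresistant members, 73.8% (68.5 to 78.6), and in 121 of 196 primary members, 61.7% (54.5 to 68.6). The remaining 80 and 75 members had reached the rule on Gata6 alone. This division was chosen after the values were seen. Among members with Vsig4 or Timd4, 103 and 68 held Timd4 without Vsig4, 45 and 22 held both, and 77 and 31 held Vsig4 without Timd4. Gata6 was found in 40 of the 225 and 20 of the 121.

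**Figure D1:**
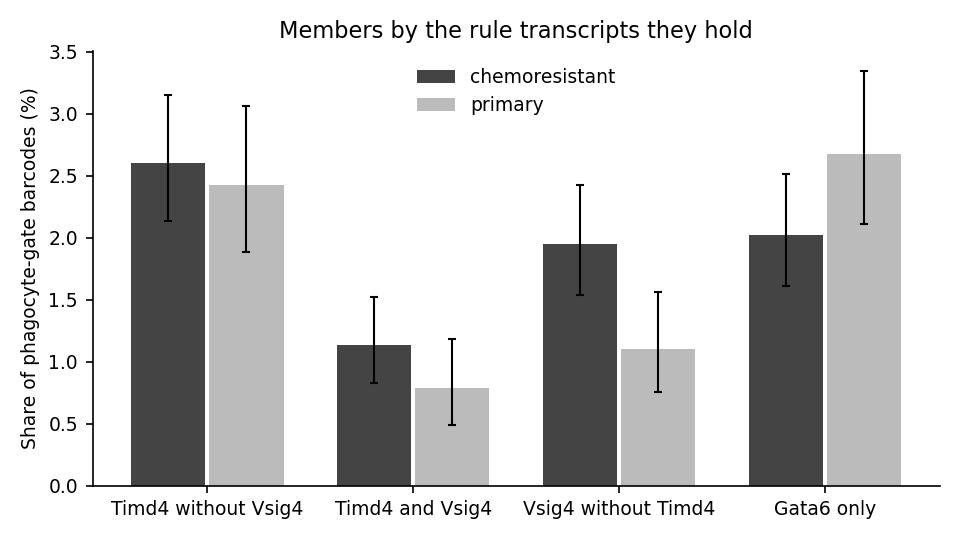
Share of phagocyte-gate barcodes in each class of members, by the rule transcripts held, with chemoresistant bars left of primary bars and exact Clopper-Pearson 95% intervals as whiskers. Vsig4 without Timd4 made up 1.95% (1.54 to 2.43) of the chemoresistant gate and 1.11% (0.753 to 1.57) of the primary gate. The intervals of the libraries overlapped in every class, only slightly in this one, and overlap is not a test of a difference.

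Fcna, the only given marker that the rule did not use, differed in level between the 2 kinds but did not part them barcode by barcode. It was present in 95.6% of chemoresistant and 89.3% of primary members with Vsig4 or Timd4, and in 32.5% and 34.7% of Gata6-only members. It stood at 1396 CPM (1349.8 to 1443) in chemoresistant and 1479 CPM (1420.0 to 1539) in primary members with Vsig4 or Timd4, at 61.8 CPM (50.1 to 75.3) and 59.3 CPM (49.3 to 70.7) in Gata6-only members, and at 579 and 361 CPM in other phagocytes. Cd5l, a secreted scavenger protein of tissue macrophages, followed the same order, with 522 and 425 CPM, 39.1 and 22.5 CPM, and 129 and 84.5 CPM. Ptprc, the pan-leukocyte antigen CD45, was at 47.9 and 54.5 CPM in Gata6-only members, against 358 and 505 CPM in other phagocytes. Gata6-only members were thus low in the leukocyte gene and in both resident genes, in either library.

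Most Gata6-only barcodes instead carried transcripts of stromal, mesothelial or tumour epithelial cells, and some in the primary library also those of gut cells. The median sum of the 4 gate genes was 10 UMIs in chemoresistant and 6 in primary Gata6-only members, near the limit of the gate. It was 119 and 146 in members with Vsig4 or Timd4 and 48 and 64 in other phagocytes. Values in Gata6-only members were widely spread, above all in the chemoresistant library. Under 20 gate UMIs were held by 42 of 80 and 61 of 75 of them, and the 90th percentiles were 103 and 93.6 UMIs. At least 5 UMIs of 14 fibroblast, epithelial and mesothelial markers were present in 67 of 80 chemoresistant and 66 of 75 primary Gata6-only members. The same held for 12 of 225 and 5 of 121 members with Vsig4 or Timd4. Col1a1, a chain of type I collagen, stood at 1226 CPM (1172 to 1282) and 811 CPM (773 to 851) in Gata6-only members. Wt1, a transcription factor, stood at 387 CPM (357 to 419) and 653 CPM (619 to 689) in them. Wt1 was listed as a marker of both tumour epithelium and mesothelium, so it does not tell these apart. In other phagocytes Col1a1 was at 56.6 and 33.3 CPM and Wt1 at 34.0 and 17.4 CPM. Krt18-bearing barcodes without phagocyte transcripts, a comparison set chosen after the values were seen, held Gata6 at 263 and 228 CPM. Fabp2, a fatty-acid binding protein of the small intestine, reached at least 10 UMIs in 0 of 80 chemoresistant Gata6-only members, which allows a share of up to 4.51%, and in 15 of 75 primary ones. Neither 5 non-leukocyte marker UMIs nor 10 Fabp2 UMIs were reached by 13 of 80 chemoresistant and 9 of 75 primary Gata6-only members. As a group the Gata6-only members go against the label and are called by their rule transcript. Doublet calls covered 31 of 80 and 13 of 75 of them, against 17 of 225 and 7 of 121 members with Vsig4 or Timd4.

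**Figure D2:**
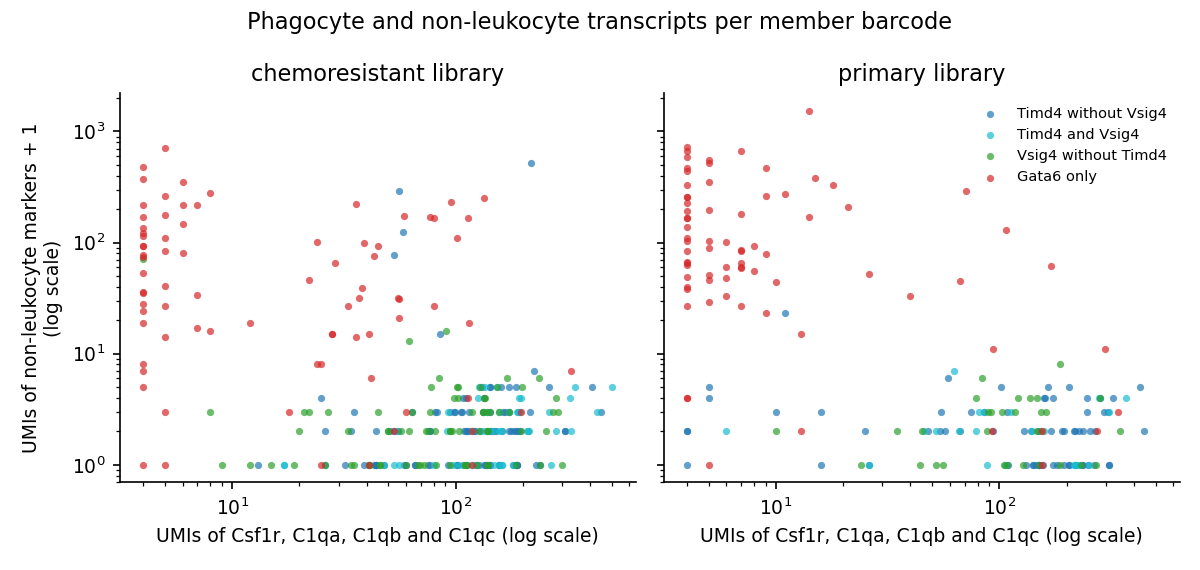
Each point is 1 member barcode, with the UMIs of the 4 phagocyte gate genes on the horizontal and the UMIs of 14 non-leukocyte markers plus 1 on the vertical axis, both on log scales, chemoresistant at left. Gata6-only barcodes lie mostly high on the vertical axis. Under 20 gate UMIs were held by 42 of 80 chemoresistant and 61 of 75 primary ones, with medians of 10 and 6. Members with Vsig4 or Timd4 lie mostly at the lower right, with medians of 119 and 146.

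Gata6 itself was sparse in the members that matched the label. Members with Vsig4 or Timd4 held 39.8 CPM (32.3 to 48.4) of it in the chemoresistant and 19.8 CPM (13.5 to 28.0) in the primary library. At 2000 UMIs per barcode, a depth reached by 217 of 225 chemoresistant members and all 121 primary members of this kind, 3.69% (1.60 to 7.13) and 6.61% (2.90 to 12.6) held a Gata6 UMI. B-lineage barcodes, which should lack the gene, gave 3.84% (2.16 to 6.25) and 1.11% (0.593 to 1.89) at that depth, and 4.10% and 2.85% unthinned. The chemoresistant share of members lay within the interval of the B-lineage share, and the primary share lay above it. Gata6 is a gene of the rule, so these shares describe the choice of members. Median depths before thinning were 9700 and 13238 UMIs in these members and 1610 and 4241.5 in B-lineage barcodes. In the chemoresistant library, 12 barcodes with non-leukocyte transcripts held much of the Gata6, since the level without them was 18.1 CPM, against 17.9 CPM in the primary library.

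The contrast of members with other phagocytes describes the kind of cell the rule drew, and since the rule set the classes apart it carries no test. In members with Vsig4 or Timd4, 137 genes were at least 1.5-fold higher and 167 at least 1.5-fold lower than in other phagocytes in both libraries, of 8157 genes measured in both. In the chemoresistant library alone 3.14% of genes were higher and 4.16% lower, and in the primary library 4.99% and 6.59%. Over all 501 members the corresponding shares were 11.9% and 5.31%, and 21.8% and 9.75%, and for Gata6-only members 27.4% and 20.7%, and 30.5% and 19.6%. The genes leading the contrast of Gata6-only members were Col1a1, Zfpm2, Ror1, Col3a1 and Slit3, which are transcripts of fibroblasts and other mesenchymal cells.

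Genes of large peritoneal macrophages were among those raised most in members with Vsig4 or Timd4 over other phagocytes. Of 20 measured genes of that list outside the rule, 16 were higher than in other phagocytes in the chemoresistant library and 15 in the primary library, with a median log2 ratio of 1.19 and 1.18, beside -0.04 and -0.05 over all genes. None of the 20 was lower. Prg4, the lubricant proteoglycan 4, was at 151 and 184 CPM in these members, against 16.3 and 5.89 CPM in other phagocytes. Marco, a scavenger receptor that belongs to the Kupffer and scavenger lists instead, was at 445 and 478 against 82.1 and 75.2 CPM. Alox15, which oxidises fatty acids to lipid mediators, was at 324 and 274 against 65.3 and 15.2 CPM. These 3 genes were unevenly spread: a Marco UMI was present in 22.7% and 24.8% of the members, Prg4 in 15.6% and 17.4%, and Alox15 in 53.8% and 30.6%, while Fcna was present in 95.6% and 89.3%. B-lineage barcodes, at a median of 1610 and 4241.5 UMIs, held Marco in 0.439% and 1.17%, Prg4 in 0.219% and 0.587%, Alox15 in 0.805% and 0.336% and Fcna in 3.07% and 6.12%. Icam2 and Selp, adhesion molecules of large peritoneal macrophages, were low but also above other phagocytes, Icam2 at 27.3 and 29.7 against 9.94 and 10.7 CPM. Clec4f, which defines Kupffer cells of the liver, had no UMI in either class of either library. The list of Lyve1 and Folr2 tissue-resident macrophage genes was also raised in members with Vsig4 or Timd4, mainly in the primary library. Of 11 measured genes outside the rule, 2 were higher in the chemoresistant and 9 in the primary library, and none was lower. The median log2 ratios were 0.43 and 1.06. Lyve1 and Folr2 were among the higher genes in both libraries. Which of these resident types the members were closer to was not tested.

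Most listed genes of monocyte-derived cells were lower, as were the inflammatory cytokines Il1b and Tnf. Of the list of small peritoneal and monocyte-derived macrophage genes, 1 was higher and 10 lower of 13 in the chemoresistant library, and 1 higher and 9 lower of 14 in the primary library. The higher gene was Chil3 in the chemoresistant library, at 201 CPM against 124 CPM in other phagocytes, and Retnla in the primary library, at 2217 CPM against 685 CPM. Ccr2, the receptor that brings monocytes into tissue, was at 72.7 and 98.4 CPM in members with Vsig4 or Timd4, against 386 and 608 CPM in other phagocytes. Il1b, the cytokine interleukin 1 beta, was at 9.64 and 51.4 against 235 and 282 CPM, and Tnf at 7.23 and 17.9 against 121 and 72.5 CPM. MHC class II genes had medians of -0.54 and -1.43, with 3 of 10 lower in the chemoresistant and 7 of 10 lower in the primary library. Arg1, arginase 1, was higher, at 3515 and 4081 CPM against 2175 and 2231 CPM, and so was Saa3, an acute-phase serum amyloid, at 3767 and 2407 against 1887 and 596 CPM.

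**Figure D3:**
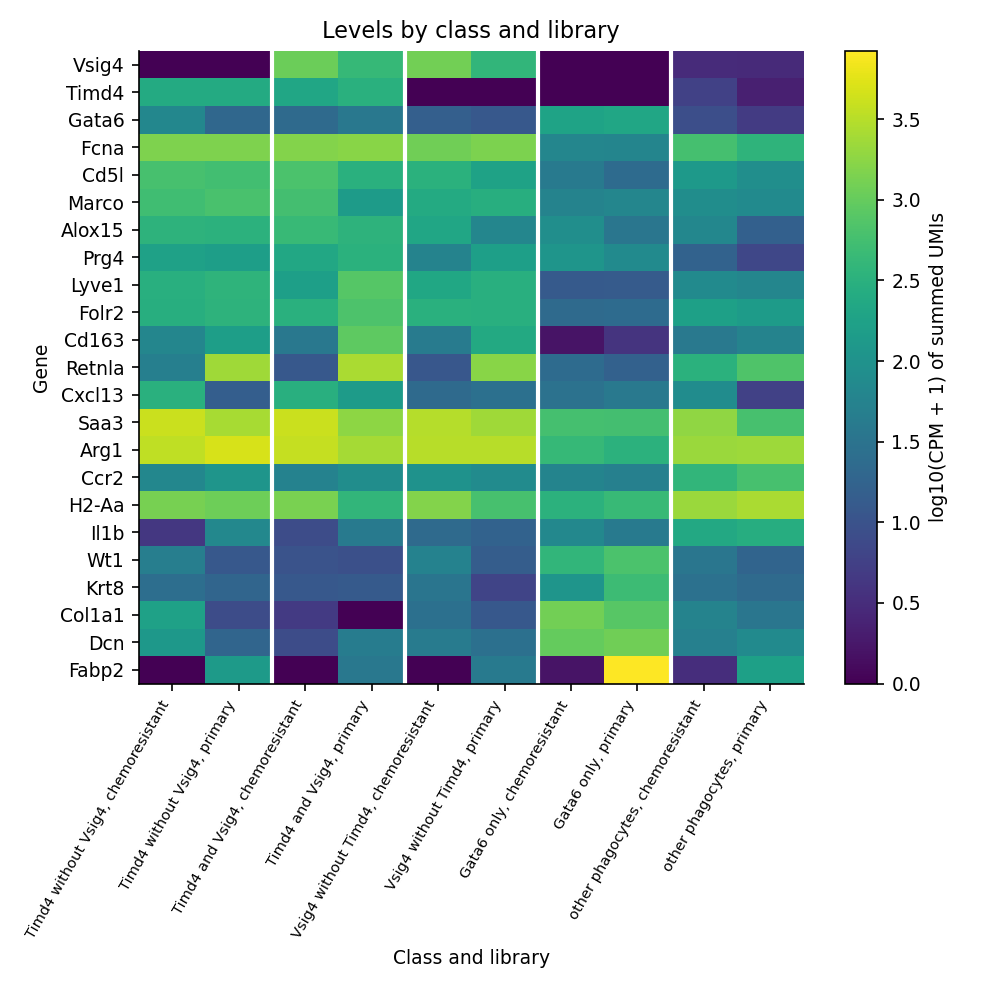
Levels as log10(CPM + 1) of summed UMIs for 23 genes in each class of members and in other phagocytes, with the chemoresistant column left of the primary column in each pair. Fcna and Cd5l are high in the 3 classes with Vsig4 or Timd4 and low in Gata6-only members, where Col1a1, Dcn and Wt1 are high, and Retnla and Cd163 differ between libraries in the first 3 classes.

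The libraries held similar shares of members at the deposited depth. Members made up 7.72% (6.90 to 8.59) of the chemoresistant and 6.99% (6.08 to 8.0) of the primary gate, a difference of 0.73 percentage points with an interval, -0.55 to 1.97, that includes 0. Members with Vsig4 or Timd4 made up 5.69% (4.99 to 6.46) and 4.32% (3.59 to 5.14), a difference of 1.38 points (0.31 to 2.41). Kept barcodes were also thinned to 2000 UMIs, leaving out shallower ones, before the gate and the rule were applied. This gave 122 of 3685 gate barcodes, 3.31%, in the chemoresistant and 27 of 2530, 1.07%, in the primary library. The difference was 2.24 points (1.53 to 2.95). Since the gate was drawn anew on thinned counts, its barcodes are not all those of the gate above. At that equal depth a smaller share of the primary than of the chemoresistant gate reached 2 UMIs of the rule. Vsig4, a gene of the rule, was at 610.0 CPM (579.7 to 641) in chemoresistant and 153 CPM (134 to 173) in primary members with Vsig4 or Timd4, and Timd4 at 165 CPM (149.8 to 182) and 202 CPM (181 to 226). Among members that held Vsig4 without Timd4, Vsig4 stood at 1231 and 385 CPM, and among those with both at 1089 and 417 CPM. These levels belong to the choice of members and are given as a description.

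Comparing chemoresistant with primary tumours within members with Vsig4 or Timd4, 531 of 8768 genes, 6.06%, were at least 1.5-fold higher and 1653, 18.9%, at least 1.5-fold lower. The log2 ratios, taken after adding 5 CPM, had a median of -0.22. After centring on that median, 1036 genes were higher and 702 lower. In other phagocytes 2.37% were higher and 8.72% lower, and in all 501 members 5.76% were higher and 24.2% lower, with medians of -0.23 and -0.24. Counting error is larger in these members, which held 2490329 and 1615596 UMIs in all, than in other phagocytes with 23045677 and 29219279. Genes are named below relative to these backgrounds, and whether a ratio differed between members and other phagocytes was not tested. Markers of other leukocytes differed between libraries in members with Vsig4 or Timd4. B-lineage markers summed to 30.9 and 171 CPM and conventional dendritic cell markers to 34.9 and 93.5 CPM, while monocyte markers ran the other way, at 474 and 266 CPM. Under 20 gate UMIs were held by 9 of 225 and 11 of 121 of them. The part of this in the ratios below was not tested.

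Markers of alternative activation and of Lyve1-type resident macrophages were lower in the chemoresistant library. Retnla, a secreted resistin-like protein induced by interleukin 4, was at 28.5 CPM (22.3 to 36.0) in chemoresistant and 2217 CPM (2145 to 2291) in primary members, a log2 ratio of -6.05. A Retnla UMI was present in 9.78% and 43.8% of them, and at 2000 UMIs per barcode in 2.76% (1.02 to 5.92) and 28.9% (21.0 to 37.9). B-lineage barcodes gave 2.56% (1.23 to 4.65) and 4.53% (3.41 to 5.89) at that depth and 2.71% and 8.89% unthinned, so the chemoresistant share lay at background. In other phagocytes Retnla was at 323 and 685 CPM, a log2 ratio of -1.07. The Cd209 lectins, which bind mannose-rich glycans, were found mainly in the primary members. Cd209f had 1 UMI in the chemoresistant members, 0.402 CPM (0.0102 to 2.24), and stood at 226 CPM (203 to 250.3) in the primary members. Cd209b had no UMI in chemoresistant members, which allows up to 1.48 CPM, and stood at 76.1 CPM (63.3 to 90.8) in primary members. In other phagocytes these lectins were low in both libraries, Cd209f at 0.130 and 7.87 CPM. The Cd209 genes are close paralogs, so the division of reads among them is uncertain.

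Cd163, the receptor for haemoglobin bound to haptoglobin, was at 51.0 CPM (42.5 to 60.7) in chemoresistant and 292 CPM (266 to 319.7) in primary members, a log2 ratio of -2.41 against -0.49 in other phagocytes. Mrc1, the mannose receptor, was at 471 CPM (444 to 498) and 1324 CPM (1268 to 1381). Lyve1, a hyaluronan receptor, was at 242 CPM (223 to 262) and 409 CPM (378 to 441), and Folr2, the folate receptor beta, at 296 and 388 CPM, short of 1.5-fold. Of the Lyve1 and Folr2 list, 0 higher and 6 lower of 11 had crossed 1.5-fold, with a median log2 ratio of -0.69 against 0.05 in other phagocytes. After centring, 3 of the 11 were lower. The alternative activation list had 1 higher and 7 lower of 12 past 1.5-fold, a median of -0.86 against -0.68 in other phagocytes, and 6 lower after centring. Among its members, Mgl2, a galactose-binding lectin, was at 13.3 and 145 CPM, and Clec10a, its relative, at 57.4 and 369.5 CPM. Arg1, at -0.22, lay at the median of all genes, and Chil3, the chitinase-like protein Ym1, was the exception of the list at 201 CPM (184 to 219.6) and 48.9 CPM (38.7 to 60.9).

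Several genes of this group were higher in primary members that held Cd163 than in those without it. In the primary library the 47 members with a Cd163 UMI had 3925 CPM of Retnla, 193 CPM of Cd209b and 579 CPM of Lyve1, against 1287, 12.4 and 316 CPM in the 74 without. Saa3 ran the other way there, at 628 and 3376 CPM. In the chemoresistant library the 41 members with Cd163 had 29.1 CPM of Retnla and no Cd209b UMI, against 28.3 CPM of Retnla in the 184 without. The class holding both Timd4 and Vsig4, 22 barcodes in the primary library, stood highest there for Cd163, at 898 CPM (784 to 1023), for Cd209f, at 687 CPM (589 to 798), and for Mrc1, at 2419 CPM (2231 to 2619). The 45 chemoresistant barcodes of that class had 36.5 CPM of Cd163, no Cd209f UMI and 523 CPM of Mrc1. Members of a library share its pool, so these splits are descriptions within 1 library.

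**Figure D4:**
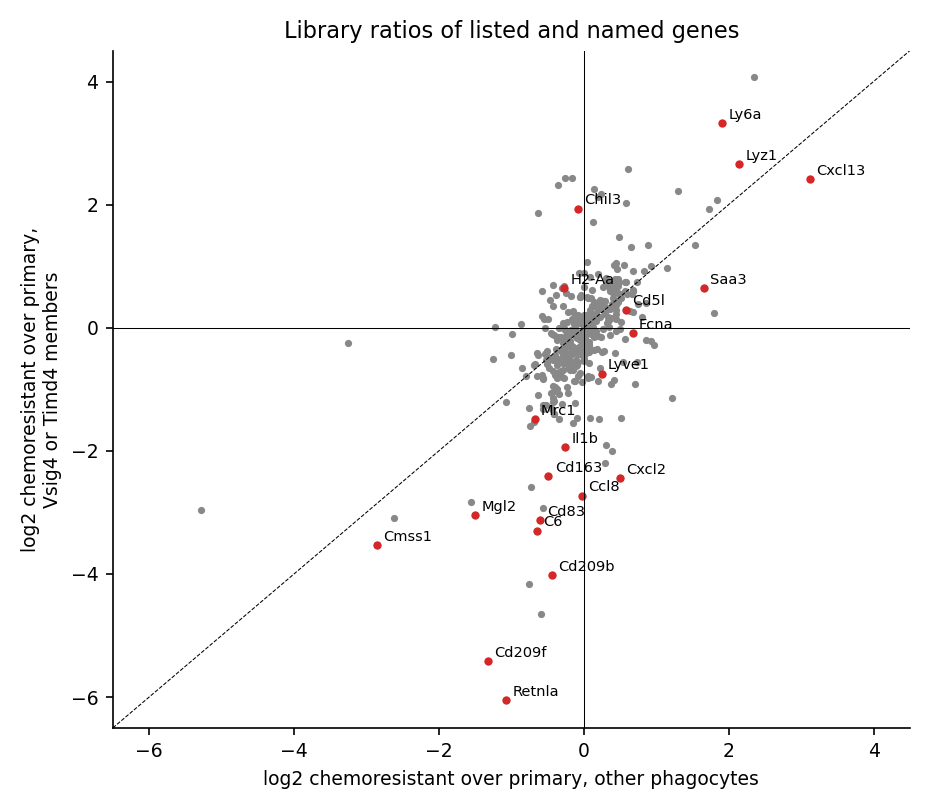
Log2 ratio of chemoresistant over primary in members with Vsig4 or Timd4 (vertical) against the ratio in other phagocytes (horizontal) for the genes of the fixed lists and those at the ends of the library contrast in these members, at 10 CPM or more in a library, with the dashed line marking equal ratios. Retnla, Cd209f and Cd163 lie well below the line, Cmss1 lies near it, and Ly6a, Lyz1 and Cxcl13 are high in both classes.

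Most listed inflammatory genes were lower as well, and Il1b, Tnf and Cxcl2 were below other phagocytes in both libraries. Of the NF-kB and inflammatory secretion list, 1 higher and 16 lower of 20 had crossed 1.5-fold, with a median log2 ratio of -1.11 against -0.15 in other phagocytes, and 13 were lower after centring. Cxcl2, a chemokine that attracts neutrophils, was at 52.6 CPM (44.0 to 62.4) and 308 CPM (282 to 337) in members, while other phagocytes had 934 and 661 CPM. Nfkbiz, an NF-kB cofactor, was at 93.6 CPM (81.9 to 106) and 228 CPM (206 to 253), and Il1b at 9.64 CPM (6.17 to 14.3) and 51.4 CPM (40.9 to 63.7). Saa3 was the gene of the list that was higher, at 3767 CPM (3691 to 3844) and 2407 CPM (2332 to 2484), with a UMI in 92.0% and 62.8% of members, against 18.0% and 14.8% of B-lineage barcodes. Ccl8, a chemokine for monocytes and other leukocytes, was at 177 CPM (161 to 194) and 1201 CPM (1148 to 1255) in members, and in other phagocytes at 179.6 and 183 CPM.

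The immediate early and heat shock genes, which are sensitive to tissue handling, moved with the inflammatory genes. Of that list 1 higher and 15 lower of 25 had crossed 1.5-fold, with a median of -0.82 against -0.09 in other phagocytes. Jun stood at 175 CPM (159 to 192) and 438 CPM (406 to 471), Dusp1, a phosphatase induced early by stress, at 81.5 CPM (70.7 to 93.5) and 235 CPM (212 to 260.1), and Hspa1a, an inducible chaperone with the near-identical copy Hspa1b, at 4.42 CPM (2.20 to 7.90) and 38.4 CPM (29.4 to 49.2). Their part in the inflammatory differences was not tested.

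Among transcription factors, 0 higher and 8 lower of 20 listed genes had crossed 1.5-fold, and 3 were lower after centring. Maf, a factor of tissue macrophages, was at 393 CPM (369 to 419) and 636 CPM (597 to 676), and Rarb, a retinoic acid receptor, at 20.9 CPM (15.6 to 27.4) and 35.9 CPM (27.3 to 46.4). Cebpb, a factor of the myeloid lineage, had a log2 ratio of 0.20 and had not crossed it. Of the scavenger and apoptotic-cell receptor list, 2 higher and 8 lower of 19 had crossed 1.5-fold. Cd36, a receptor for oxidised lipids, was at 315 CPM (293 to 338) and 618 CPM (580.0 to 657), and Gas6, the bridging ligand of the receptors Mertk and Axl, at 188 CPM (171 to 205) and 347 CPM (319 to 377). Mertk and Axl themselves were at -0.29 and -0.04. Complement genes gave 1 higher and 2 lower of 12. C6 of the terminal pathway, outside that list, was at 6.42 CPM (3.67 to 10.4) and 107 CPM (91.7 to 124).

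The identity genes of large peritoneal macrophages lay near the median of all genes. Of 20 measured outside the rule, 2 were higher and 3 lower past 1.5-fold, with a median of -0.11. Fcna had a log2 ratio of -0.08, Cd5l of 0.30 and Alox15 of 0.24. Thbs1, a matricellular protein, was the lowest of the list at 121 CPM (108 to 136) and 358 CPM (329.8 to 389). Cxcl13, a chemokine for B cells made by cavity macrophages, was the highest at 219.7 CPM (202 to 239) and 37.1 CPM (28.3 to 47.8), yet the share of members with a UMI was 14.2% and 16.5%, beside 0.366% and 0.503% in B-lineage barcodes, and 1 chemoresistant barcode held 38.8% of its UMIs.

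Genes of the type I interferon response and of MHC class II leaned higher in the chemoresistant members. Of the type I interferon list, 8 higher and 3 lower of 23 had crossed 1.5-fold, with a median of 0.41 against 0.12 in other phagocytes, and 13 were higher after centring. Irf7, a factor that amplifies interferon production, was at 108 CPM (95.9 to 122) and 50.8 CPM (40.4 to 63.0). Ly6a, an interferon-inducible surface protein outside the list, was at 409.6 CPM (385 to 436) and 36.5 CPM (27.8 to 47.1), and was also higher in other phagocytes, at 611 and 159 CPM. MHC class II genes gave 3 higher and 1 lower of 10 and a median of 0.37, while other phagocytes had a median of -0.33. H2-Aa, a class II chain, was at 1407 CPM (1361 to 1454) and 898 CPM (852 to 946) in members, against 2191 and 2639 CPM in other phagocytes. MHC class I genes gave 1 higher and 1 lower of 12 and a median of 0.28, where the higher gene was H2-K1, a class I heavy chain, at 1568 CPM (1519 to 1618) and 1032 CPM (983 to 1083), and the lower was Tap2, a subunit of the peptide transporter, at 23.3 CPM (17.7 to 30.1) and 40.9 CPM (31.6 to 52.0). Lyz1, a lysozyme with the close copy Lyz2, was at 260.2 CPM (241 to 281) and 37.1 CPM (28.3 to 47.8), and was higher in other phagocytes too, by 2.14 on the log2 scale.

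Glycolysis and hypoxia genes gave 10 higher and 0 lower of 23, a median of 0.34, and a like median of 0.38 in other phagocytes. Pgk1, phosphoglycerate kinase, was at 511 CPM (483 to 540.0) and 199 CPM (178 to 222), and at 474 and 194 CPM without barcodes holding 5 or more non-leukocyte UMIs. Ndrg1, a hypoxia-induced gene, was at 51.8 and 9.90 CPM, but without those barcodes at 10.8 and 9.56 CPM. Several of the highest ratios behaved likewise: Cryab, a small heat shock protein, was at 110.4 and 1.86 CPM with them and 9.93 and 1.91 CPM without. Sparc, a matrix protein, was at 188 and 35.3 CPM with them and 32.0 and 32.5 CPM without. Fibroblast markers summed to 396 and 53.9 CPM in all members with Vsig4 or Timd4. Retnla, Cd163 and Ly6a differed as much without those barcodes, with Retnla at 30.7 and 2128 CPM, Cd163 at 55.5 and 286 CPM and Ly6a at 436 and 33.8 CPM.

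**Figure D5:**
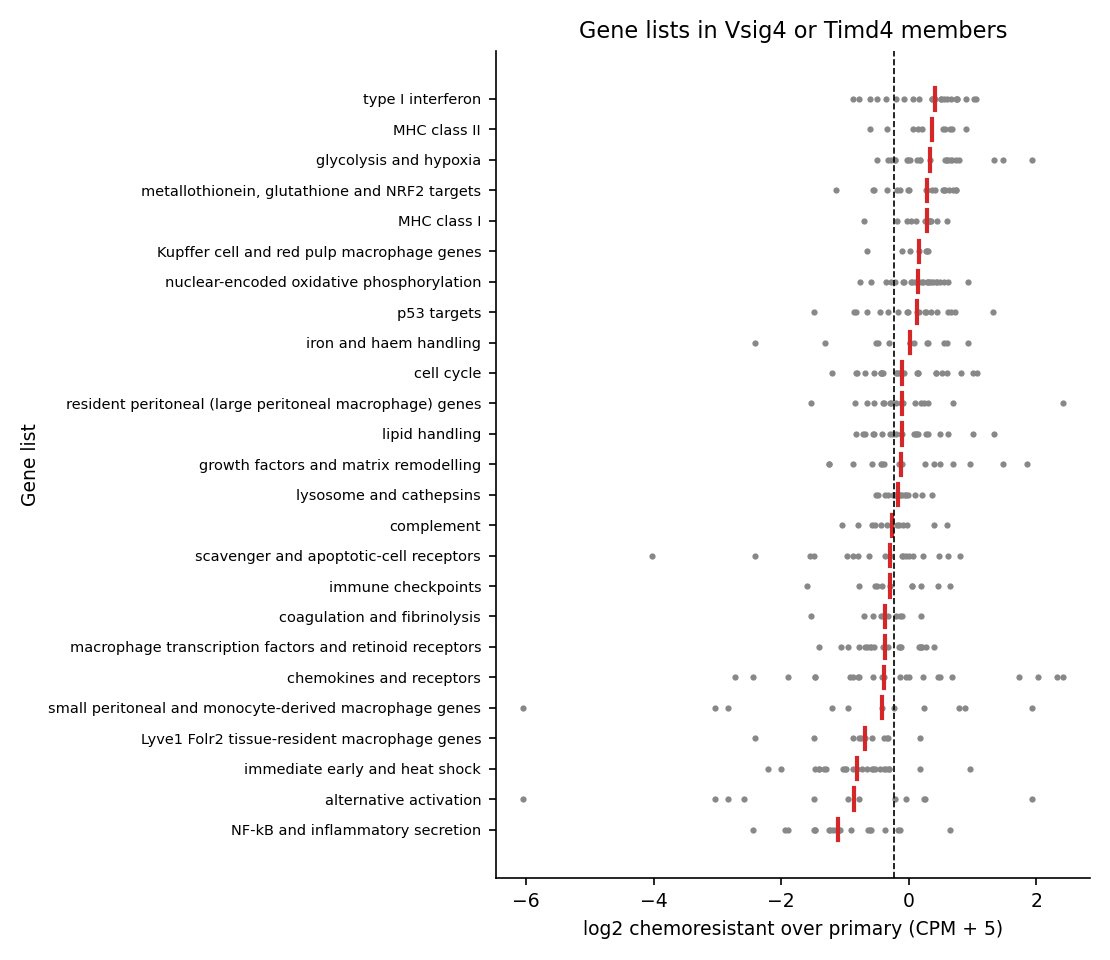
Log2 ratio of chemoresistant over primary (5 CPM added) in members with Vsig4 or Timd4 for the 25 gene lists, 1 point per measured gene outside the rule, with the list median as a red bar and the median of all genes, -0.22, as a dashed line. The NF-kB list has the lowest median, -1.11, and the type I interferon list the highest, 0.41.

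Cisplatin damages DNA, and p53 targets in these members gave 4 higher and 4 lower of 19 past 1.5-fold, with a median of 0.13. Bax, a pro-apoptotic p53 target, was at 202 CPM (185 to 221) and 130.0 CPM (113 to 149), and Cdkn1a, the cell-cycle inhibitor p21, at 82.7 CPM (71.8 to 94.8) and 74.9 CPM (62.1 to 89.5). The list of metallothionein, glutathione and NRF2 genes gave 4 higher and 1 lower of 19, with Gpx4, which reduces lipid peroxides, at 851 CPM (815 to 888) and 505 CPM (471 to 541). Fth1, the ferritin heavy chain, was at 31935 and 16852 CPM in members and 26338 and 16397 CPM in other phagocytes. Cycling barcodes, with a UMI of Mki67, Top2a or Cdk1 at 2000 UMIs, made up 7.37% (4.27 to 11.7) and 9.92% (5.23 to 16.7) of members. Other phagocytes gave 7.87% (6.97 to 8.85) and 9.04% (7.94 to 10.2). B-lineage barcodes, which may include cycling cells, gave 7.16% (4.81 to 10.2) and 4.62% (3.49 to 5.98), or 4.24% and 10.3% unthinned. Without thinning the shares in members were 20% and 27.3%. No lysosomal gene of 19 had crossed 1.5-fold in either direction. Cd209b and Cxcl9, which had 0 UMIs in 1 of the libraries, lay at the ends of their lists, so no list median turned on them.

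Some differences were present in other phagocytes as well. Cmss1, a nucleolar protein, was at 114 and 1375 CPM in members and 190.3 and 1406 CPM in other phagocytes, and Lars2, a mitochondrial leucyl-tRNA synthetase, at 110.4 and 977 against 144 and 910.0 CPM. Ctrb1, a chymotrypsinogen of the pancreas, had no UMI in either class of the chemoresistant library and stood at 34.0 CPM in primary members and 189 CPM in primary other phagocytes. Fabp2 was present in 41.3% of primary members with Vsig4 or Timd4, at 99.0 CPM, and had no UMI in chemoresistant ones. Gut and pancreas transcripts were thus found at low level in both classes of the primary library.

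Within Gata6-only members the libraries differed in other genes, with 12.1% of 10346 genes higher and 29.3% lower in the chemoresistant library. The lowest ratios were those of gut transcripts, among them Fabp2 at 0.630 and 8397 CPM, Apoa1, the main protein of high-density lipoprotein, with no UMI and 4222 CPM, and Reg3b, an antibacterial lectin of the gut, with no UMI and 3296 CPM. The highest were hypoxia genes and Spp1, the secreted protein osteopontin, at 1416 CPM (1358 to 1475) and 88.0 CPM (75.7 to 102). Ndufa4l2, a hypoxia-induced mitochondrial protein, was at 404 CPM (373 to 437) and 20.6 CPM (14.9 to 27.7). These barcodes held 38.9% of all member UMIs in the chemoresistant and 56.4% in the primary library, and the same genes, Ndufa4l2 and Spp1 at 1 end and Fabp2 and Apoa1 at the other, led the contrast over all 501 members.

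At the limit of the rule, 98 chemoresistant and 57 primary members had exactly 2 UMIs of Vsig4, Timd4 and Gata6, and 336 and 205 gate barcodes just outside had 1. Gata6 was the only such transcript in 39.8% and 33.3% of those with 2 and in 53.9% and 54.1% of those with 1. Fcna was at 748 and 735 CPM just inside and 808 and 476 CPM just outside. Ccr2 was at 81.9 and 98.7 CPM inside and 209.6 and 429 CPM outside.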

How the data were processed

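Droplet single-cell RNA sequencing was done on 1 library per group. The authors deposited matrices of UMI counts per gene and barcode, made by Cell Ranger 8.0.1 according to the file headers. The submitters' processing notes name mm10, with no annotation version stated. The libraries held 158118781 (chemoresistant) and 141334623 (primary) UMIs over 16390 and 14390 barcodes.

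Members were selected by the rule stated at the opening. Counts were summed per class and library and given as CPM with exact Poisson 95% intervals. Shares carry exact Clopper-Pearson intervals and their differences Newcombe intervals. Ratios were taken as log2 after adding 5 CPM, for genes at 10 CPM or more in a library, and a gene was counted at 1.5-fold. PCR copies are collapsed by UMIs, and intervals cover counting error only. To compare detection across depths, barcodes were thinned to 2000 UMIs, leaving out shallower ones. Doublets were kept, and calls by Scrublet in scanpy 1.11.5 at 0.8% per 1000 barcodes served as an alternative. The functions for ratios and Poisson intervals were tested on simulated counts.

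Named genes were the ends of each fixed list, the 12 highest and 12 lowest library ratios and the 15 highest and 10 lowest ratios over other phagocytes, at 20 CPM and detection in 10% of members. The same ranks taken within the Vsig4 or Timd4 and the Gata6-only members were added after the values were seen. The rule left out mitochondrial, immunoglobulin and unnamed models and genes with most of their UMIs in 1 barcode. Genes shown as identity or background checks were chosen with their values known. The members and lists were chosen with earlier results of these data known. Alternatives covered depth, mitochondrial and rule limits, doublets, the added CPM, the filter and centring.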

Additional observations from a re-analysis of the deposited data

Results flagged for a closer look

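Among listed and named genes, 4 had library ratios of opposite sign that reached 2-fold in members with Vsig4 or Timd4 and 1.5-fold in other phagocytes, and the difference was not tested in any of them. Mmp14, a membrane-bound metalloproteinase, had a log2 ratio of chemoresistant over primary of 1.86 in these members and -0.63 in other phagocytes, from 22.1 CPM (16.6 to 28.7) and 2.48 CPM (0.675 to 6.34) in members. Mt2, a metallothionein, had -1.14 and 1.22, from 26.5 CPM (20.5 to 33.7) and 64.4 CPM (52.6 to 78.0) in members. Slit3, a secreted guidance protein of mesenchymal cells, had 3.53 and -1.31, and Tagln, an actin-binding protein of contractile cells, 1.7 and -1.10. Without barcodes holding 5 or more non-leukocyte marker UMIs, Slit3 was at 0.451 and 1.28 CPM and Tagln at 1.35 and 4.46 CPM in chemoresistant and primary members. On that basis Mmp14 was at 12.6 and 2.55 CPM and Mt2 at 16.2 and 63.8 CPM.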

How the results depend on the processing

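No paired analysis was possible because each group is 1 library, and for the same reason no replicate was left out. Of the alternatives, those on Vsig4 or Timd4 members, on Gata6-only members and on barcodes with under 5 non-leukocyte marker UMIs were chosen after seeing the data. Where a value below changed, the cause was not tested unless the setting itself fixes it.

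A rule of 1 UMI or more gave members as 16.2% of the chemoresistant and 14.3% of the primary gate, as 4.30% of chemoresistant and 3.13% of primary kept barcodes, and Vsig4 or Timd4 members as 9.62% of the chemoresistant and 7.67% of the primary gate. A rule of 3 or more gave, for the same 3 pairs of shares, 5.24% and 4.96%, 1.39% and 1.08%, and 4.20% and 2.96%. Thinning to 2000 UMIs before the gate and the rule gave 3.31% and 1.07%, 1.16% and 0.239%, and 2.99% and 1.03%, with a difference in members of 2.24 points. A minimum of 1000 UMIs gave chemoresistant members as 2.29% of kept barcodes.

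Over all members, genes at least 1.5-fold higher numbered 1014 when thinned, 1169 without barcodes holding a UMI of another class, 1200 with Vsig4 only, 347 with under 5 non-leukocyte UMIs, 1255 in Gata6-only members, 360 with 20 CPM added, 362 at 50 CPM and 1224 when centred. Lower genes numbered 1401 with 20 CPM added, 1014 at 50 CPM and 1454 when centred. In Vsig4 or Timd4 members the higher and lower counts were 1223 and 2948 when thinned, 1215 and 3600 without barcodes holding a UMI of another class, 1200 and 2916 with Vsig4 only, 277 and 721 with 20 CPM added, 240 and 795 at 50 CPM, and 1036 and 702 when centred, with 803 higher when unfiltered. Against other phagocytes in both libraries, Vsig4 or Timd4 members gave 137 higher and 167 lower where all members gave 817 and 354, and 239 and 345 when thinned.

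Reversed log2 ratios over all members were those of the small peritoneal list, at 0.061 without barcodes holding a UMI of another class and 0.14 in Gata6-only members, and of Ndufa4l2, at -1.02 in the first of these. Myl9 reversed there to -0.96, with Vsig4 only to -0.30, with under 5 non-leukocyte UMIs to -0.25 and in Vsig4 or Timd4 members to -0.21, and with under 5 such UMIs Mgarp to -0.075 and Vldlr to -0.16. In Vsig4 or Timd4 members without barcodes holding a UMI of another class, Mast4 gave -0.017, Sparc -0.76 and Nfib -0.014. With Vsig4 only Mast4 gave -0.35 and Nfib -0.25, and with under 5 non-leukocyte UMIs Sparc gave -0.018. Of 800 list medians computed, 771 kept their direction and size. With 2490329 chemoresistant and 1615596 primary UMIs, a gene at 10 CPM rests on few counts.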

Other observations

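Ccl5 and other secreted factors varied between members with Vsig4 but not Timd4 and members with Timd4 but not Vsig4, whether or not they held Gata6. Ccl5, a chemokine for T cells, stood at 501 CPM (452 to 555) in chemoresistant and 10.8 CPM (2.95 to 27.7) in primary members with Vsig4 but not Timd4, while members with Timd4 but not Vsig4 had 68.7 and 52.3 CPM. Spp1 was higher in the class with Vsig4 without Timd4 in both libraries, at 377 and 225 CPM, against 92.2 and 49.3 CPM with Timd4 without Vsig4. Ccl8 in the chemoresistant library was at 377 CPM with Vsig4 without Timd4 and 77.1 CPM with Timd4 without Vsig4. Cd5l ran the other way, at 315 and 184 CPM with Vsig4 without Timd4 and 595 and 542 CPM with Timd4 without Vsig4. Of the lipid handling list, 3 higher and 3 lower of 21 differed past 1.5-fold between libraries, with Trem2, a lipid-sensing receptor, at 618 CPM (587 to 649.7) and 401 CPM (371 to 433) in members with Vsig4 or Timd4 and 599.9 and 371 CPM in other phagocytes. Apoe, the apolipoprotein that carries cholesterol out of macrophages, was at 24898 and 22959 CPM in members and 20215 and 15994 CPM in other phagocytes. Hmox1, which breaks down haem, was at 3696 and 3016 CPM in members.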
